A study of Mus musculus with 4 samples.

Results

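The 7 genes described here encode proteins that carry glucose into the pancreatic beta cell and couple its breakdown to the mitochondrion: Slc2a2, Pcx, Gpd2, Glud1, Mdh1, Pdha1 and Cs. They were taken by name from a fixed list, found by matching the Ensembl identifiers of the count files to gene symbols, and all 7 were present among the 43629 genes counted. The libraries came from islets of C57BL/6 mice, the pancreatic clusters of endocrine cells, and there was 1 library per group: islets of genotype control, islets of genotype Rip2;IMP2, an IMP2 RNA immunoprecipitation (RIP, whose RNA is called the immunoprecipitate) from WT islets, and a library titled IgG from WT islets. Igf2bp2 encodes IMP2, which binds RNA, and IgG is the usual control antibody of such an experiment. The series title calls Rip2;IMP2 an islet-specific knockout. Rip2 names an insulin promoter of beta cells, and the remaining cell types of an islet preparation may keep the intact gene. The age and sex of the mice, and whether animals were pooled, are not given in the sources used here.

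A beta cell senses glucose by metabolising it. Glucose enters through the transporter GLUT2 and is broken down to pyruvate, NADH made in the cytosol is carried into the mitochondrion by shuttles, and pyruvate enters the TCA cycle through pyruvate dehydrogenase or pyruvate carboxylase. The ATP that results closes potassium channels and so starts insulin release, while the refilling of cycle intermediates (anaplerosis) provides further signals for secretion.

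The libraries held from 6025594 gene counts (IMP2 RIP) to 26350813 (control islets), and between them 24275628 (Rip2;IMP2) and 13195732 (IgG). Igf2bp2 had 255 counts in control islets against 222 in the Rip2;IMP2 islets, a ratio of 0.979 (95% counting interval 0.814 to 1.18), so its level did not check the genotype. A count over the whole gene cannot show the deletion of a part of it, and this library is called the knockout-labelled library here. The library labelled IgG held little islet RNA: the 9 beta cell markers examined, led by Ins1 and Ins2, made up 0.0973% of its gene counts, against 30.9% in control islets, 33.5% in the knockout-labelled library and 23.6% in the immunoprecipitate. The 12 adipocyte markers, led by Car3, Lpl and Cox8b, made up 5.59% of the IgG library, 0.322% of the RIP, 0.0276% of control islets and 0.0231% of the knockout-labelled library. Every value below that uses the IgG library therefore compares libraries of different tissue content, whatever their antibody.

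The promoter windows of the 7 genes ranged widely in CpG content. The windows at both extremes, the unlike starts of Pcx and the window of Cs, the gene that came closest to the limit between the islet libraries, are shown. Each window runs from 250 bases before to 50 bases after a start site in RefSeq (GRCm38.p6), capitals mark CpG dinucleotides, and Pcx and Gpd2 have more than 1 start site. The windows shown are chr3:28697653-28697952 (plus strand) for Slc2a2, the glucose transporter, chr19:4510222-4510521 and chr19:4594069-4594368 (both plus strand) for the first and the second start of Pcx, chr10:128337477-128337776 (plus strand) for Cs and chr14:34310477-34310776 (plus strand) for Glud1.

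Slc2a2: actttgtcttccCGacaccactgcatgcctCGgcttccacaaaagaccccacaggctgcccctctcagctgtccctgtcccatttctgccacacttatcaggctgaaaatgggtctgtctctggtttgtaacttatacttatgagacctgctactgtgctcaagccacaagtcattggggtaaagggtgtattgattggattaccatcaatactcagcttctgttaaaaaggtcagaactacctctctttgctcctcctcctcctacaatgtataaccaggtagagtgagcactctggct

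Pcx first start: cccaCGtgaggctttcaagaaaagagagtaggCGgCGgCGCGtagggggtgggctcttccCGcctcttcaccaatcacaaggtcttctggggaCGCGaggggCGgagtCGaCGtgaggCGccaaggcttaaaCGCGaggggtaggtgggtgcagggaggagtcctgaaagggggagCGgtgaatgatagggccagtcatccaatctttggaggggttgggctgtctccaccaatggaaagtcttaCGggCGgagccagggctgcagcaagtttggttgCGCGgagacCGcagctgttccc

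Pcx second start: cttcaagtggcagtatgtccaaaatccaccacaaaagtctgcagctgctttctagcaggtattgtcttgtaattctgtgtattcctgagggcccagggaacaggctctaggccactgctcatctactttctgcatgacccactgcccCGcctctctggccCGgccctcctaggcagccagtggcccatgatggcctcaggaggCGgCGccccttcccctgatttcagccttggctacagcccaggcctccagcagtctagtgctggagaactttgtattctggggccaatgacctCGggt

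Cs: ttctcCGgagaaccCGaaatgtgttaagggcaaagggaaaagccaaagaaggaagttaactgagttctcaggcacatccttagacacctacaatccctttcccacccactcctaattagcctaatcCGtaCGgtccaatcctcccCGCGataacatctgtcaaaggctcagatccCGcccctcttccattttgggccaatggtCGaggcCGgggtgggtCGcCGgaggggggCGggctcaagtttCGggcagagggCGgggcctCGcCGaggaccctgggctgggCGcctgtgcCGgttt

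Glud1: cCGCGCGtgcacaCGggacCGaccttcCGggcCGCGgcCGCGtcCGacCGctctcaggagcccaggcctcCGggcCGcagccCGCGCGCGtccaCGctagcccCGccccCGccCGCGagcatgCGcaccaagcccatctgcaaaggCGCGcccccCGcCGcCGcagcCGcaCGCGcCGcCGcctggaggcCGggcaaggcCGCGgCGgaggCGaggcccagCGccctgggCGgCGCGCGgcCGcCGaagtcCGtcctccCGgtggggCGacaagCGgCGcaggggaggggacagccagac

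The Slc2a2 window held 2 CpG dinucleotides at 48.0% GC, the fewest of the 9 windows of the 7 genes, and 23.3% of the 32851 windows of all genes held as few. The other genes each had at least 1 window with 18 or more, against a median of 7 over all windows. Cs had 18, Mdh1 and Pdha1 had 21 each, and Glud1 had 51, more than 99.3% of all windows. Pcx was mixed: its first start had 20 and its second, inside the gene, had 5. Gpd2 likewise had 9 at its first start and 34 at its second. The counts of reads per gene do not tell the start sites of Pcx or Gpd2 apart. None of the 9 windows held TATAAA on either strand, a TATA box sequence found in 13.6% of all windows. The GC box letters GGGCGG, searched on both strands, were absent at Slc2a2, Pdha1, the second start of Pcx and the first of Gpd2 and present in the other 5 windows, where 35.7% of all windows hold them. The letters CCAAT, also searched on both strands, stood 2 times at Slc2a2, Mdh1 and Cs, 3 times and once at the starts of Pcx, and nowhere at Gpd2, Glud1 or Pdha1, against 37.4% of all windows with a match.

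**Figure D1:**
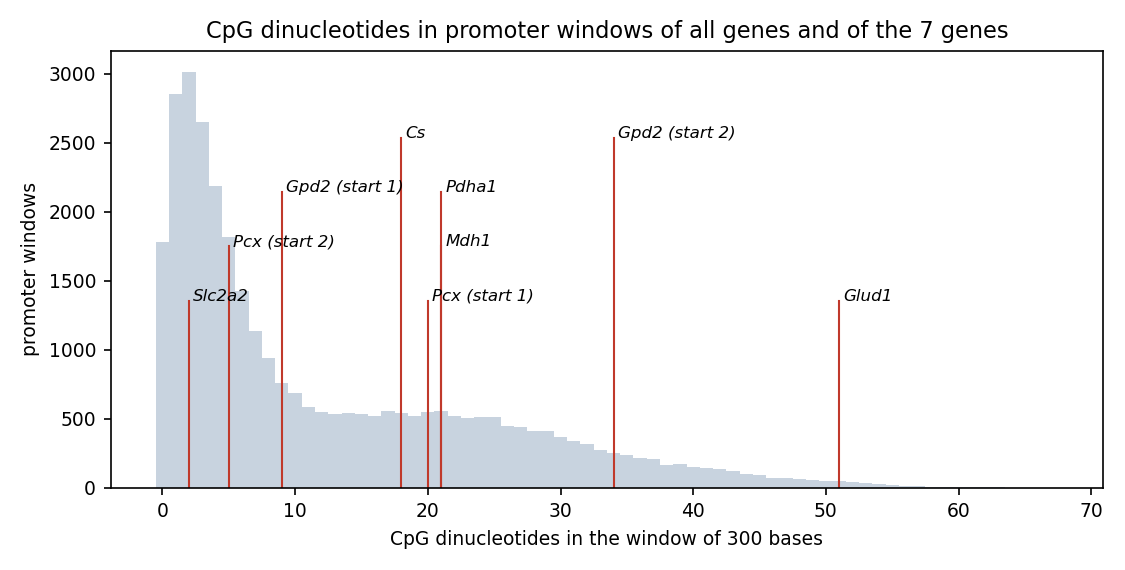
Number of promoter windows (vertical axis) by the number of CpG dinucleotides they hold (horizontal axis), over all 32851 windows of 300 bases, with red lines at the 9 windows of the 7 genes. Slc2a2, at 2, lies in the peak of the distribution, and Glud1, at 51, in its upper tail.

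Glucose uptake is the first step, and Slc2a2, which encodes GLUT2, the main glucose transporter of mouse beta cells (ENSMUSG00000027690, mm10 chromosome 3, 28697903 to 28731359, plus strand), had the largest ratio between its highest and lowest level. It had 4655 counts in control islets (176.7 CPM, counts divided by the library's total over genes and set to a common scale), 4458 in the knockout-labelled library (183.6 CPM), 835 in the immunoprecipitate (138.6 CPM) and 6 in the IgG library (0.455 CPM). The 2 islet libraries and the RIP lay close together, and the IgG library lay far below them. No library had a replicate, so each interval given here covers counting error only, and PCR copies of a molecule were counted as separate reads.

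Of the anaplerotic enzymes, Pcx encodes pyruvate carboxylase, which turns pyruvate into oxaloacetate (ENSMUSG00000024892, chromosome 19, 4510472 to 4621752, plus strand). It had 128.5 CPM in control islets, 136.7 in the knockout-labelled library, 139.1 in the immunoprecipitate and 573.3 in the IgG library. Glud1 encodes glutamate dehydrogenase, which links glutamate to the TCA cycle (ENSMUSG00000021794, chromosome 14, 34310727 to 34345265, plus strand), and had 109.4 CPM, 96.8, 57.6 and 113.7 in the same order. Pcx was thus nearly level over the islet libraries and the RIP and higher in the IgG library, whereas Glud1 was lowest in the immunoprecipitate.

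Gpd2 and Mdh1 belong to the NADH shuttles. Gpd2 encodes the mitochondrial glycerol-3-phosphate dehydrogenase (ENSMUSG00000026827, chromosome 2, 57237635 to 57370719, plus strand), and stood at 40.6 CPM in control islets, 31.8 in the knockout-labelled library, 41.5 in the immunoprecipitate and 350.9 in the IgG library. Mdh1 encodes the cytosolic malate dehydrogenase of the malate-aspartate shuttle (ENSMUSG00000020321, chromosome 11, 21556787 to 21572367, minus strand), and stood at 210.5 CPM, 218.6, 162.6 and 154.4. Among the 7 genes, Mdh1 had the smallest ratio of the highest to the lowest CPM over the 4 libraries, and Slc2a2 the largest.

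Pdha1 and Cs act where pyruvate enters the cycle. Pdha1 encodes the E1 alpha subunit of pyruvate dehydrogenase (ENSMUSG00000031299, chromosome X, 160122209 to 160138413, minus strand), with 40.8 CPM in control islets, 31.4 in the knockout-labelled library, 64.2 in the immunoprecipitate and 288.5 in the IgG library. Cs encodes citrate synthase, which joins acetyl-CoA to oxaloacetate (ENSMUSG00000005683, chromosome 10, 128337734 to 128362479, plus strand), with 102.3 CPM, 68.1, 98.6 and 1561. Both were lowest in the knockout-labelled library and highest in the IgG library, where Cs alone took 51.3% of the reads of the 7 genes.

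**Figure D2:**
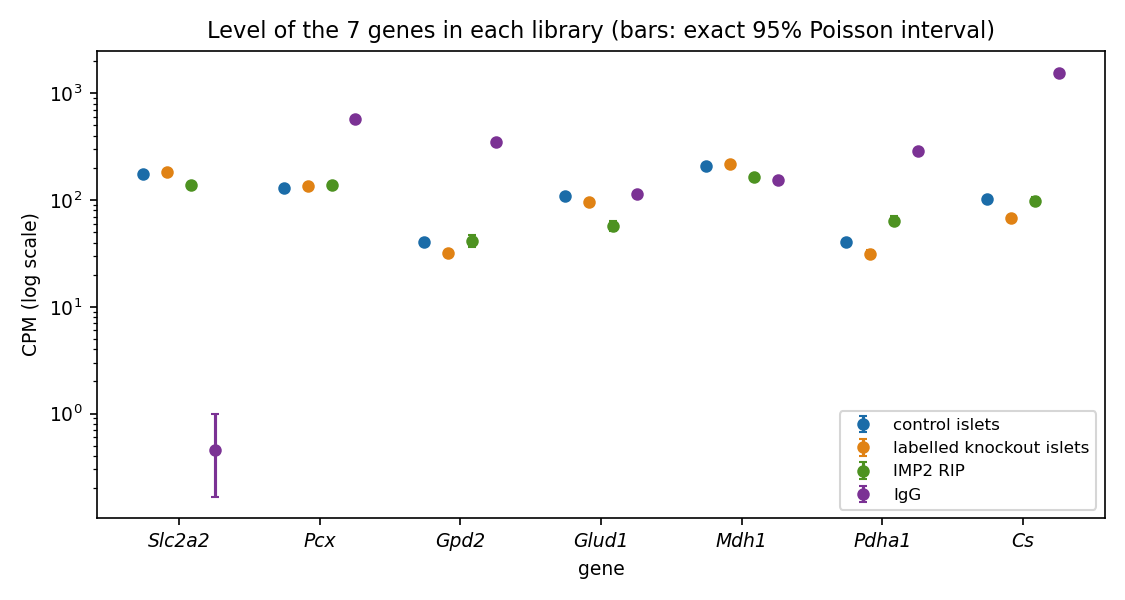
Level of each gene (horizontal axis) in CPM on a log scale (vertical axis), 1 point per library with its exact 95% Poisson interval. Slc2a2 is the only gene of the 7 whose IgG point lies far below the other 3, while Pcx, Gpd2, Pdha1 and Cs have their highest point there. Glud1 does too, but its IgG and control intervals overlap.

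Some reads of these genes may be lost to or shared with other genes. Exons of Pdha1 overlap those of Map3k15 on the opposite strand over 603 bases, 16.1% of the Pdha1 exon length, and the strand setting of the counting is not given in the sources used here. Map3k15 had 2827 counts in control islets against 3959 in the knockout-labelled library, where Pdha1 had fewer (1074 and 762), and its part in the Pdha1 counts was not tested. Of the longest Glud1 transcript, 27.8% matched transcripts of 2 other genes at 95% identity or more over at least 100 bases, mainly the processed pseudogene Glud-ps. Gpd2 shared 7.44% of its exon length with the opposite-strand gene A930012O16Rik and Mdh1 2.03% with Wdpcp. Slc2a2, Pcx and Cs had neither an exon overlap nor such a match.

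Divided by exon length, as RPKM (CPM per kilobase of exon), the order of the levels was the same in both islet libraries. Mdh1 led with 82.0 RPKM in control islets and 85.2 in the knockout-labelled library, followed by Slc2a2 (30.7 and 31.9), Pcx (27.0 and 28.8), Glud1 (25.997 and 23.0), Cs (17.7 and 11.8), Pdha1 (10.9 and 8.41) and Gpd2 (6.19 and 4.85). In control islets Pcx and Glud1 did not differ beyond counting error (ratio of RPKM 1.04, 0.990 to 1.09), and all other neighbours in that order did. In the RIP the order was Mdh1 (63.4), Pcx (29.3), Slc2a2 (24.1), Pdha1 (17.2), Cs (17.1), Glud1 (13.7) and Gpd2 (6.34), and Pdha1 and Cs did not differ beyond counting error (ratio 1.01, 0.885 to 1.15). In the IgG library Cs led with 270.1 RPKM, before Pcx (120.6), Pdha1 (77.3), Mdh1 (60.1), Gpd2 (53.6) and Glud1 (27.0), and Slc2a2 came last at 0.0790.

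**Figure D3:**
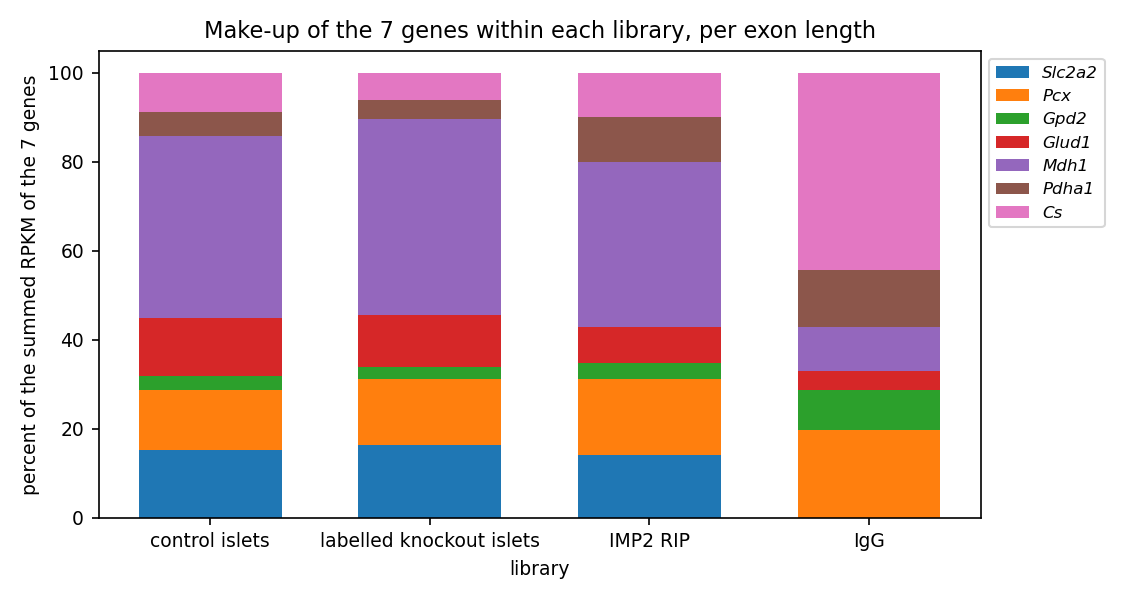
Share of each gene in the summed RPKM of the 7 genes (vertical axis, percent) in each library (horizontal axis). Mdh1 makes up 40.9% in control islets, 43.9% in the knockout-labelled library and 37.1% in the immunoprecipitate, and Cs 44.4% in the IgG library, where Slc2a2 makes up 0.0130%.

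The comparison of the knockout-labelled library with control islets addresses which of these RNAs differ with the labelled loss of IMP2. None of the 7 genes was called, where a call needs a ratio of TMM-scaled levels of at least 1.5-fold and a 95% counting interval that excludes 1. The background was 21.4% of 15735 measured genes called (6.13% higher and 15.3% lower). Cs came closest, at 2695 counts in control islets against 1652 in the knockout-labelled library and a ratio of 0.689 (0.648 to 0.733). Pdha1 had a ratio of 0.798 (0.726 to 0.876) and Gpd2 0.811 (0.738 to 0.890). Slc2a2 had 1.08 (1.03 to 1.12), Pcx 1.10 (1.05 to 1.16) and Mdh1 1.08 (1.04 to 1.12), and Glud1 had 0.916 (0.867 to 0.968). No interval spanned 1, but these intervals leave out the spread between animals, and a difference between animals or preparations cannot be told apart from the genotype.

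The scaling decides whether Cs passes the limit. Under total gene counts its ratio on the log2 scale was -0.59 and Cs alone was called. The 9 beta cell markers had a median log2 ratio of 0.35 in the knockout-labelled library, and all 10 lymphocyte markers were called lower, from 1378 CPM in sum in control islets to 253.4, with none at 0 in either library. Relative to the median ratio of the beta cell markers, a scaling added after the data were seen, Cs (-0.89), Pdha1 (-0.67) and Gpd2 (-0.65) were called lower, and Slc2a2 (-0.24), Mdh1 (-0.24) and Pcx (-0.21) changed from above to below 0 on the log2 scale. In RNA of whole islets, fewer cells of a type and less RNA per cell cannot be told apart, and the part of the lymphocyte and beta cell RNA in these ratios was not tested. Enterocytes, the absorptive cells of the gut, also express Slc2a2. Their marker Vil1 stood at 95.1 CPM in control islets against 98.9 in the knockout-labelled library, and the other 8 summed to 61.3 and 1.65 CPM, with Fabp2, Sis and Apoa4 at 0 in the latter. Of 8 measured among all 9, 7 were called lower. The Slc2a2 ratio was above 1 under TMM and below 1 relative to the beta cell markers, and the part of enterocyte RNA in its counts was not tested.

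Ratios of 2 genes within 1 library do not depend on the scaling. Per exon length, Pcx over Pdha1, the pair of enzymes that share out pyruvate, was 2.48 in control islets (2.31 to 2.66) and 3.42 in the knockout-labelled library (3.16 to 3.71), beyond counting error. Pcx over Pdhb, the other E1 subunit, lay the other way at 1.96 (1.84 to 2.08) and 1.84 (1.73 to 1.96), with overlapping intervals. Pdhb had a ratio of 1.17 (1.09 to 1.26) between the libraries, so Pdhb over Pdha1 went from 1.27 (1.17 to 1.37) to 1.86 (1.70 to 2.03). Gpd1, the cytosolic enzyme that works in pair with Gpd2, had 570 and 719 counts and a ratio of 1.42 (1.27 to 1.59), below the limit. Gpd1 over Gpd2 went from 1.18 (1.06 to 1.31) to 2.06 (1.86 to 2.29). Mdh2, the mitochondrial counterpart of Mdh1, had a ratio of 0.987 (0.947 to 1.03).

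In the wider pathway the calls between the islet libraries are read against the 21.4% of all measured genes. Of 17 TCA cycle genes, all measured, 0 were called, with a median log2 ratio of -0.01 against 0.00 over all genes, and Cs had the lowest ratio of the list. Of 14 genes of pyruvate entry and pyruvate dehydrogenase, Pdpr, a regulatory subunit of the phosphatase that acts on the complex, was called lower (245 and 78 counts, 2.79-fold, 2.16 to 3.65) and the median was 0.06. Of 10 shuttle genes only the aspartate-glutamate carrier gene Slc25a13 was called, lower at 1.72-fold (1.27 to 2.36), and the median was -0.06. Of 15 measured genes of anaplerosis, pyruvate cycling and glutamate, Gls2, a glutaminase, was called higher (58 and 88 counts, 1.71-fold, 1.21 to 2.42) and Me2, the mitochondrial malic enzyme, lower (1.87-fold, 1.63 to 2.14), with a median of 0.14. Of 14 measured genes of hexose transport and hexokinases, 1 was higher and 5 lower, where 6.13% and 15.3% of all measured genes were, and the median was -0.10. The 1 higher call is at the limit and was lost under total gene counts and under DESeq2 size factors. Relative to the beta cell markers, 6 hexose transport and hexokinase genes were lower, 4 of pyruvate entry, 1 of the TCA cycle, 3 of the shuttles and 2 of anaplerosis, and none of the 5 lists had a higher call. Under TMM the lowest of the hexose transport and hexokinase genes was Hk2, a hexokinase kept low in beta cells (193 and 56 counts, 3.07-fold, 2.27 to 4.21). The 1 called higher under TMM was Slc2a13, a myo-inositol transporter (1.502-fold, 1.30 to 1.74). Slc2a1, which encodes GLUT1, had a ratio of 1.02 (0.903 to 1.14).

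In the RIP against control islets none of the 7 genes was called at a limit of 2-fold, where 41.2% of 15968 measured genes were (16.8% higher and 24.3% lower). This comparison sets immunoprecipitated RNA beside whole-islet RNA. Pdha1 came closest to the limit, with 387 counts in the immunoprecipitate and a ratio of 1.91 (1.70 to 2.15). Glud1 lay lowest, with 347 counts and a ratio of 0.639 (0.570 to 0.714). Pcx had 1.31 (1.22 to 1.42), Gpd2 1.24 (1.08 to 1.43) and Cs 1.17 (1.07 to 1.28), while the intervals of Slc2a2 (0.952, 0.883 to 1.03) and Mdh1 (0.938, 0.875 to 1.004) reached 1. Cs lay below 1 under total gene counts, at -0.05 on the log2 scale. The reads can be copies of fewer molecules. The 230 genes at 0 in both islet libraries and above 5 reads in the immunoprecipitate had a median of 18 reads there. That median was used as a rough setting for the reads per molecule, not a measured one. Such genes can hold several molecules of RNA from other tissue, as may Elovl3 (75 counts in the immunoprecipitate), so the true number may be lower. In the IgG library the same setting was 21 reads, from 121 genes, with the same limit (Elovl3 had 1425 counts there). Control islets were kept at 1 read per molecule. Molecules were rounded to whole numbers, so a gene with few reads could be set to 0. On molecules estimated this way the interval of Pdha1 was 1.22 to 2.98 and that of Glud1 0.378 to 0.985, and the other 5 spanned 1.

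Of the adipocyte markers in the RIP, 12 of 12 were called higher than in control islets, with none at 0 in the immunoprecipitate and Elovl3 at 0 in control islets. In CPM these markers stood at 4.17% (Car3) to 33.7% (Dio2) of their level in the IgG library. Among the 7 genes, Cs stood at 6.31% of its IgG level, Gpd2 at 11.8%, Pdha1 at 22.3% and Pcx at 24.3%. Outside the range of the markers lay Glud1 at 50.7%, Mdh1 at 105.4% and Slc2a2 at 30477%. Cs, Gpd2, Pdha1 and Pcx are the 4 genes called higher in the IgG library against control islets, and the part of adipocyte RNA in their RIP levels was not tested. The 10 lymphocyte markers were called lower in the RIP, at 168.6 CPM in sum with Cd2 at 0, and their part was not tested either. Other genes of the pathway were called higher in the immunoprecipitate than in control islets beside these markers. Pck1, which encodes the cytosolic PEP carboxykinase of liver, kidney and fat, had 14 counts in control islets against 389 in the immunoprecipitate (147.5-fold, 86.8 to 272). Gpd1 had 4621 counts in the immunoprecipitate and a ratio of 43.0 (39.4 to 47.0), and Slc2a4, the insulin-responsive transporter GLUT4 of fat and muscle, had 429 and a ratio of 40.7 (30.7 to 54.7). Of the lists, 5 genes of pyruvate entry were called higher, led by Pdk4 (3.75-fold), and 3 lower of 14 (median log2 ratio 0.65), with Pdk3 at 3 counts against 436 (ratio 0.0365, 0.0075 to 0.107), 1 TCA cycle gene higher (Sucla2, 3.37-fold) and 1 lower (Suclg2, 5.64-fold) of 17 (median 0.47), and 1 shuttle gene higher (Gpd1) and 1 lower of 10 (median -0.32). The last was Slc25a13, at 126 counts in control islets and 0 in the immunoprecipitate. Hexose transport and hexokinases had 3 of 14 higher and 3 lower (median -0.06), with Slc2a10 at 0 counts, and the anaplerosis list 5 of 16 higher and 2 lower (median 0.35), with Gls2 at 0, against a median of -0.12 over all genes. On estimated molecules the intervals of Slc25a13, Slc2a10, Gls2 and Suclg2 reached above 1, and of the lower calls of all 5 lists only that of Pdk3 was left. Its 3 reads were rounded to 0 molecules there, and whether the call would hold at 1 molecule was not tested. Under total gene counts 3 genes of pyruvate entry were higher instead of 5, 3 shuttle genes lower instead of 1 and 4 anaplerosis genes lower instead of 2.

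**Figure D4:**
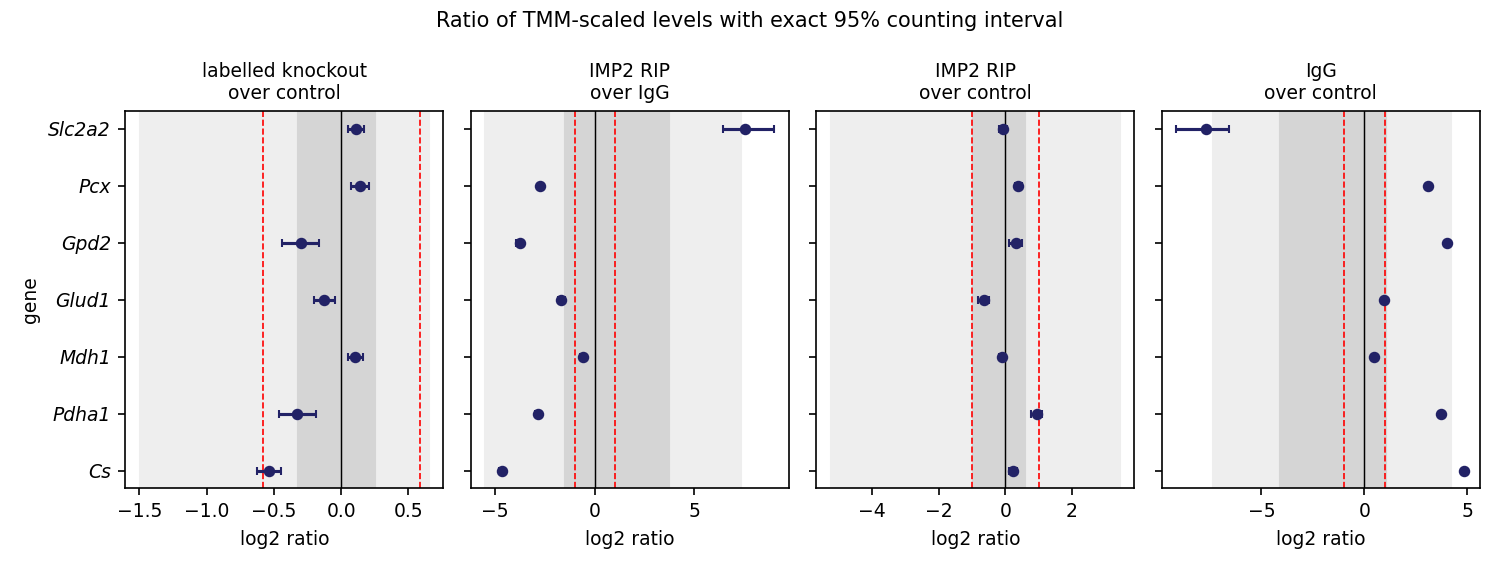
Log2 ratio of TMM-scaled levels (horizontal axis) of each gene (vertical axis) in the 4 comparisons, with exact 95% counting intervals, some narrower than the point. Dashed red lines mark the limits of 1.5-fold or 2-fold, and the grey bands hold the middle 50% (dark) and 90% (light) of all measured genes. In the panels of labelled knockout over control and RIP over control all 7 genes lie between the limits.

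The RIP over IgG comparison addresses which RNAs were recovered with IMP2 beyond a control antibody. Of the 7 genes, 1 was called higher and 5 lower, at a limit of 2-fold, against a background of 43.2% higher and 30.5% lower over 14822 measured genes (73.7% in all). Slc2a2, with 835 and 6 counts, was 189.0-fold higher in the immunoprecipitate (86.5 to 517). On estimated molecules its lower bound was 13.9-fold, but its 6 IgG reads were rounded to 0 molecules there, so this bound may be too high. Cs was lowest, with 594 counts in the immunoprecipitate and 20601 in the IgG library, a ratio of 0.0392 (0.0360 to 0.0425). Gpd2 had a ratio of 0.0733 (0.0643 to 0.0833), Pdha1 0.138 (0.124 to 0.153), Pcx 0.150 (0.140 to 0.162) and Glud1 0.314 (0.279 to 0.353). Mdh1, with a ratio of 0.653 (0.605 to 0.706), was not called. Its direction rests on the scaling, with log2 ratios of -0.61 under TMM, 0.08 under total gene counts and 0.84 under totals without acinar, hormone and Gm42418 counts. Glud1 was not called under the last 2 scalings. The calls of Slc2a2, Cs, Gpd2, Pdha1 and Pcx held under all 4 scalings run and on estimated molecules.

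The marker genes moved with these calls. In the IgG library the 9 beta cell markers summed to 972.9 CPM and the RIP to 235920, and all 9 were called higher in the immunoprecipitate with none at 0 in either library, as Slc2a2 was. All 12 adipocyte markers were called lower in the immunoprecipitate, at a median log2 ratio of -4.51, as were Cs, Gpd2, Pdha1, Pcx and Glud1. Hepatocyte markers, of a cell that also expresses Slc2a2, Pcx and Glud1, summed to 578.3 CPM in the IgG library with 0 of 10 at 0, and to 21.1 CPM in the immunoprecipitate with 5 at 0. Skeletal muscle markers summed to 148.1 and 60.4 CPM, with 0 and 3 of 7 at 0. How much of the ratios of the 7 genes reflects the antibody and how much the tissue content cannot be told apart in 1 library each.

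All 17 TCA cycle genes were called lower in the immunoprecipitate than in the IgG library (median log2 ratio -3.52 against 0.44 over all genes), from Suclg2 (39.0-fold) to Fh1 (2.41-fold). Under total gene counts and under totals without acinar, hormone and Gm42418 counts 16 of 17 were lower, without Fh1, whose log2 ratio was -0.58 and then 0.19. Of 13 measured genes of pyruvate entry and pyruvate dehydrogenase, 12 were lower (median -2.85), with Pdk4, a kinase that switches the complex off, at 18.6-fold (16.2 to 21.4). Pdhb was 9.93-fold lower and Dlat, the E2 subunit, 11.9-fold. Of the mitochondrial pyruvate carrier, Mpc2 was 14.4-fold lower (13.2 to 15.7), and Mpc1, with 20 and 1 counts, had a ratio of 27.2 (4.34 to 1126) that was not called on estimated molecules. Of the list, 9 were lower on estimated molecules and 8 under totals without acinar, hormone and Gm42418 counts. Hexose transport and hexokinases had 8 of 13 higher and 4 lower (median 3.16), with Slc2a9 at 30 counts in the immunoprecipitate and 0 in the IgG library. On estimated molecules 3 were higher and 3 lower, and Slc2a1 and Slc2a9 were not called. The lower calls there included Slc2a12, whose 1 read in the immunoprecipitate was rounded to 0 molecules. On reads Slc2a5, a fructose transporter, was 11.6-fold higher (9.44 to 14.4), Slc2a1 9.17-fold (5.40 to 16.6), Hk2 12.3-fold lower (10.1 to 15.01), Slc2a4 10.7-fold lower (9.73 to 11.9), and Slc2a12 had 1 count in the immunoprecipitate and 136 in the IgG library (ratio 0.00999, 0.000251 to 0.0566).

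Among the NADH shuttle genes the calls went both ways on reads. Of 9 measured genes 2 were higher and 5 lower in the immunoprecipitate than in the IgG library (median log2 ratio -1.90). The glycerophosphate route was lower throughout, with Gpd1 at 18.2-fold (17.7 to 18.7) and Gpd1l besides Gpd2. In the malate-aspartate route Mdh2 was 8.67-fold lower (8.19 to 9.19) and Slc25a11, the oxoglutarate carrier, 5.35-fold lower, while Got2, the mitochondrial aspartate aminotransferase, was 3.09-fold higher (2.23 to 4.32) and Slc25a12, the carrier Aralar, 2.70-fold higher (2.02 to 3.63). Neither Got2 (0.620 to 16.3) nor Slc25a12 (0.745 to 18.2) was called on estimated molecules, where the 5 lower calls held. Under TMM scaling Got1 and Mdh1 were not called. Under totals without acinar, hormone and Gm42418 counts 3 shuttle genes were higher, Got1 among them, and 3 lower (median -0.45). Gpd1l and Slc25a11 were not called there. Of 15 measured genes of anaplerosis, pyruvate cycling and glutamate, 2 were higher and 11 lower (median -1.67), against 2 and 7 under total gene counts and 3 and 5 under totals without acinar, hormone and Gm42418 counts (median -0.21). Pck2, the mitochondrial PEP carboxykinase, was 2.43-fold higher (2.12 to 2.79). Glul, glutamine synthetase, was 20.1-fold lower (19.1 to 21.1), Pck1 19.2-fold, Me1 11.8-fold and the citrate carrier gene Slc25a1 9.68-fold.

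**Figure D5:**
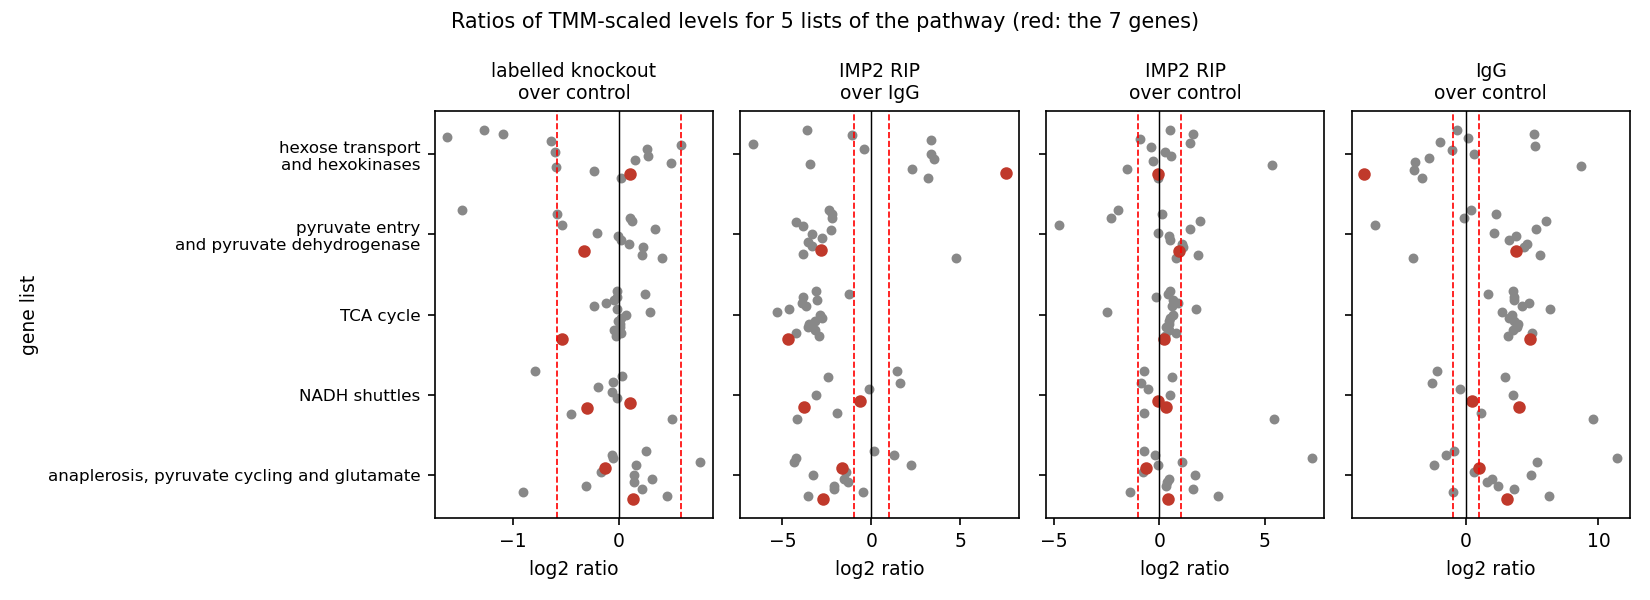
Log2 ratio of TMM-scaled levels (horizontal axis) for the measured genes of 5 lists (vertical axis), 1 point per gene, with the 7 genes in red and dashed lines at the limit of each comparison. Genes with 0 counts in either library of a pair are not drawn. Under TMM all 17 TCA cycle genes lie left of the limit in RIP over IgG and right of it in IgG over control, while hexose transport spreads to both sides.

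The IgG library was also set beside control islets, which shares control islets with the comparisons above. Of the 7 genes 4 were called higher and 1 lower, where 25.7% of 15352 measured genes were higher and 47.3% lower (73.0% in all). Slc2a2 was 206.4-fold lower on reads (94.7 to 563). On estimated molecules its bound was 16.0-fold lower, but its 6 IgG reads were rounded to 0 molecules there, so this bound may be too strong. Cs was 28.7-fold higher (27.6 to 29.9), Gpd2 16.3-fold (15.2 to 17.4), Pdha1 13.3-fold (12.4 to 14.3) and Pcx 8.40-fold (8.06 to 8.75). Glud1 had a ratio of 1.96 (1.84 to 2.08) and Mdh1 1.38 (1.31 to 1.45), and both changed direction with the scaling: under totals without acinar, hormone and Gm42418 counts their log2 ratios were -0.51 and -1.01. Mdh1 was called lower there, and lay below 0 under total gene counts too, at -0.45 on the log2 scale. Under DESeq2 size factors Glud1 was called higher. Gpd1 was 753.0-fold higher (693 to 819), Slc2a4 419.8-fold (323 to 556) and Pck1 2721-fold (1621 to 4979), and all 12 adipocyte markers were called higher with a median log2 ratio of 12.31. All 17 TCA cycle genes were higher under TMM (median 3.61 against -0.79 over all genes), led by Sucla2 at 79.0-fold, and 16 were under total gene counts and under totals without acinar, hormone and Gm42418 counts, where Fh1 had log2 ratios of 0.71 and 0.15. Of the other lists, 10 of 14 genes of pyruvate entry were higher, led by Pdk4 (67.0-fold), and 2 lower (median 3.49), with Pdk3 at 1 count (ratio 0.00862, 0.000218 to 0.0483). Of the shuttle genes 5 of 10 were higher and 3 lower (median 0.80), with Slc25a13 at 0 counts. Of the anaplerosis genes 9 of 16 were higher and 4 lower (median 1.78), with Gls2 at 0, and of hexose transport and hexokinases 3 of 15 were higher and 8 lower (median -1.93), with Slc2a9 at 0. On estimated molecules none of these 3 zeros was called lower, and the lower calls were 1 pyruvate entry, 2 shuttle, 2 anaplerosis and 4 hexose genes. The pyruvate entry call was Pdk3, whose 1 IgG read was rounded to 0 molecules. The hexose calls included Slc2a3, with 10 IgG reads, and Slc2a2, both rounded to 0 too. Whether these calls would hold at 1 molecule was not tested. Under totals without acinar, hormone and Gm42418 counts the shuttle median was -0.68, with 4 genes higher and 5 lower, and 6 anaplerosis genes were higher and 5 lower.

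Balances between partner genes within a library, per exon length, placed the RIP differently from pair to pair. Slc2a2 over Slc2a1 was 4.77 in control islets (4.38 to 5.20), 5.05 in the knockout-labelled library (4.62 to 5.53) and 4.71 in the immunoprecipitate (3.85 to 5.81), which overlap, and 0.228 in the IgG library (0.0732 to 0.615). Pcx over Pck2, which carry oxaloacetate in and out of the cycle, was 1.57, 1.81 and 2.36 in the first 3 libraries and 38.2 (34.2 to 42.8) in the IgG library. Mdh2 over Mdh1 was 0.632, 0.581 and 0.938, and 5.32 in the IgG library. In these balances the RIP lay nearer to the islet libraries. Others put it nearer to the IgG library: Gpd1 over Gpd2 was 40.9 in the immunoprecipitate (36.0 to 46.6) and 54.5 in the IgG library (53.0 to 56.2), against 1.18 and 2.06 in islets, and Pcx over Pdha1 was 1.70 (1.51 to 1.92) and 1.56 (1.501 to 1.62). Glud1 over Glul fell between, at 0.538 and 0.513 in islets, 0.164 in the immunoprecipitate and 0.0259 in the IgG library.

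The genes whose profiles over the 4 libraries were most like each member were found among 11218 other protein-coding genes with a mean of at least 5 CPM, by the distance between log2 profiles centred on their own means. For Slc2a2 the nearest was Scg3, which encodes a secretory granule protein (distance 0.07, at 725.3, 805.7, 580.9 and 3.56 CPM in control islets, labelled knockout, RIP and IgG), then Sez6l (0.12) and Sptbn4 (0.15). For Pcx they were Mccc2, Sfxn1 and Spr (0.06 to 0.08), and for Gpd2 Hadha, a subunit of the mitochondrial trifunctional protein of fatty acid oxidation, Gpihbp1 and Mrps7 (0.12 to 0.13). For Glud1 they were Strap, Tubb6 and Nmt1 (each 0.05), for Mdh1 Bcas2 (0.02), Pmpcb and Gga1, and for Pdha1 Hsd17b10 (0.11), Zswim7 and Siva1. Cs had the most distant neighbours of the 7, Mrpl12 (0.28), Tufm (0.28) and Gbe1 (0.34), at IgG levels of 244.2, 215.8 and 149.9 CPM. With 4 points a profile, likeness is a description of these libraries.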

How the data were processed

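RNA sequencing of mouse islets gave 1 count file per library. The authors deposited whole-number counts of reads per Ensembl gene, made with STAR and HTSeq on the mm10 build per the submitters' processing notes. Not given in the sources used here are their versions, the annotation release and the strand setting. From each file the 5 closing entries, which name no gene (50.3% to 72.4% of the deposited total), were left out of library sizes. Symbols, coordinates and exon lengths came from GENCODE M21 (GRCm38, the assembly of mm10), which matched 42462 of 43629 identifiers. CPM and RPKM were computed from gene counts with exact Poisson intervals. Pairs of libraries were scaled over all genes by TMM (edgeR 4.0.16, R 4.3.3), and ratios carry exact Clopper-Pearson 95% intervals. Genes with a mean of at least 1 CPM were measured. A call needs at least 1.5-fold (labelled knockout over control) or 2-fold and an interval that excludes 1. List medians use 0.5 added counts. With 1 library per group no test between conditions was possible and no p-value is given. The rule named the 7 genes, the called gene with the highest and lowest ratio of each list, fixed partner genes and the 3 most similar profiles; other genes were named after their values were seen, and some named by the rule are not reported here. Genes and lists were chosen with earlier results of these data known. The calls were run on simulated pairs drawn from 1 shared profile, with counting error alone and 200 genes changed 4-fold. Such pairs hold no difference in tissue content, PCR copies or spread between animals, so they do not check the calls against these. Alternatives were total counts, DESeq2 1.42.0 size factors, totals without abundant genes, 2 other filters, the fold alone, estimated molecules and, added later, beta cell markers. Intervals used SciPy 1.17.1 in Python 3.11.15, and shared sequence blastn.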

Additional observations from a re-analysis of the deposited data

How the results depend on the processing

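No paired analysis was possible because each group has 1 library and the labels carry no replicate numbers, and no library could be left out for the same reason. The number of the 7 genes called in labelled knockout over control was 0 under TMM, 1 under total gene counts (Cs) and 3 relative to the beta cell markers, and 0 under the other alternatives. It was 0 under every alternative for RIP over control, 5 or 6 for RIP over IgG, and 5 or 6 for IgG over control. Counts over all genes moved by more than 1.5 times with a minimum of 5 CPM, from 3374 to 2079 in labelled knockout over control and from 6574 to 3522 in RIP over control. With estimated molecules (18 reads each in the RIP, 21 in the IgG library) they moved from 10920 to 5274 in RIP over IgG, from 6574 to 2433 in RIP over control and from 11211 to 7363 in IgG over control. Total counts, and totals without acinar, hormone and Gm42418 counts, moved all log2 ratios by 0.69 and 1.46 in RIP over IgG and by -0.91 and -1.48 in IgG over control; DESeq2 size factors moved the latter by 0.17, total counts moved RIP over control by -0.28, and the beta cell markers moved labelled knockout over control by -0.35. The share of calls that were higher went from 58.6% to 69.4% and 79.4% in RIP over IgG, from 35.2% to 21.9% and 15.8% in IgG over control, and from 28.6% to 4.27% with the beta cell markers in labelled knockout over control. The cause was not tested beyond these constructions. Depth limits Slc2a2 in the IgG library, at 6 counts, and Mpc1 there, at 1.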
